A study of Mus musculus with 12 samples.

Results

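The cytochrome P450 enzymes of families 1, 2 and 3 were examined in mouse liver RNA from a study of sulfur amino acid restriction and dietary fat. Members were the protein-coding genes whose symbol starts with Cyp1, Cyp2 or Cyp3 followed by a subfamily letter and a number. Of the 36047 genes with a matched transcript, 60 carried such a symbol, and the 40 with a mean of at least 10 estimated counts per mouse were kept. All 40 also passed the filter on low counts of the test across genes, which kept 14670 genes. The members comprised 13 Cyp2c, 7 Cyp2d, 4 Cyp3a, 3 Cyp2a, 3 Cyp2j and 2 Cyp1a genes, and 1 gene each of Cyp1b, Cyp2b, Cyp2e, Cyp2f, Cyp2g, Cyp2r, Cyp2s and Cyp2u.

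Livers came from 12 male C57Bl/6J mice aged 5 to 6 months, 3 in each of 4 groups, after 7 days on the diets. RF.Ctrl mice ate a regular-fat control diet, RF.SAAR mice the sulfur amino acid restricted diet at regular fat, HF.Ctrl mice a high-fat control diet, and HF.SAAR mice the restricted diet at high fat. All 4 diets were free of cysteine and matched for nitrogen. In the restricted diets part of the methionine was replaced with glutamic acid. The regular-fat and high-fat diets had different suppliers, so fat level and supplier cannot be told apart. The mice were housed singly and deprived of food before euthanasia. Polyadenylated RNA was sequenced from both ends. The mice also received deuterated water, by injection and then to drink, for the measurement of protein synthesis.

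Cytochromes P450 are heme proteins of the endoplasmic reticulum that insert an oxygen atom into their substrates, with electrons passed on by the reductase Por. Families 1 to 3 oxidize drugs and other foreign compounds, and many members also act on steroids, bile acids and fatty acids. The liver is the main site of their expression. Several are induced through the receptors CAR, PXR and AHR, and in mice many differ between the sexes under the control of growth hormone.

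The 12 libraries held 16203094 to 21230092 estimated counts, of which the members took 1.50% to 1.94%. Summed hepatocyte markers stood between 38030 and 57110 TPM (estimated counts scaled for transcript length and library size) in every mouse, so the labelled tissue was matched by its markers. RNA of pancreatic acinar genes was unevenly spread: the sum of 12 acinar markers was above 1000 TPM in 5 mice, namely RF.Ctrl mouse 1, HF.Ctrl mice 1 and 2, and HF.SAAR mice 2 and 3, and between 19.99 and 53.58 TPM in the others. The highest value, 18210 TPM, was that of HF.SAAR mouse 3. Summed Kupffer cell markers were 100.9 to 127.2 TPM in HF.Ctrl and 151.7 to 180.0 TPM in HF.SAAR mice. On regular fat they overlapped (117.5 to 165.8 TPM in RF.Ctrl and 146.5 to 171.9 TPM in RF.SAAR). Summed endothelial markers were 94.94 to 112.3 TPM in RF.Ctrl and 127.1 to 131.4 TPM in RF.SAAR mice. On high fat they were 86.04 to 109.5 and 109.8 to 138.3 TPM. Hepatocyte markers too were apart on high fat, at 38030 to 45110 TPM in HF.Ctrl and 47770 to 52130 TPM in HF.SAAR mice. They overlapped on regular fat. TPM are not normalized between mice. On the normalized scale of the tests below, the median log2 fold change on high fat was -0.04 for hepatocyte, 0.24 for Kupffer cell and 0.08 for endothelial markers. It was 0.10 for endothelial markers on regular fat. None of these markers was called at either fat level, and 1 endothelial marker was called higher averaged over both. The part of these RNAs in the results below was not tested, and the averaged value without the 5 mice is given beside each called member. In bulk liver, fewer cells of a type and less RNA per cell cannot be told apart.

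Levels of the members, compared between genes in TPM, spanned several orders of magnitude. A mean of 100 TPM or more was reached by 19 members, 5 lay between 10 and 100 TPM, and 16 were under 10 TPM. Cyp2e1, which oxidizes ethanol and acetone, was the most abundant at a mean of 4986 TPM (4217 to 5974 TPM over the 12 mice) and alone held 41.4% of the members' TPM. No mouse's Cyp2e1 level overlapped with the next member, Cyp2d10, which averaged 953 TPM (691 to 1101 TPM). Behind it came Cyp2d9 at 887 TPM, Cyp2f2 at 611 TPM, Cyp2d26 at 546 TPM, Cyp2c50 at 409.5 TPM, Cyp2c70 at 374 TPM and Cyp2a12 at 349.7 TPM. The ranges of neighbours in this order overlapped from Cyp2d10 to Cyp2a12. These 8 members together held 75.7% of the members' TPM. Spread between mice of a group was smaller for abundant members: the pooled within-group SD of log2(CPM + 0.5), where CPM are counts scaled by the TMM-normalized library size, had a median of 0.152 for the 24 members at 10 TPM or more and 0.368 for the other 16.

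**Figure D1:**
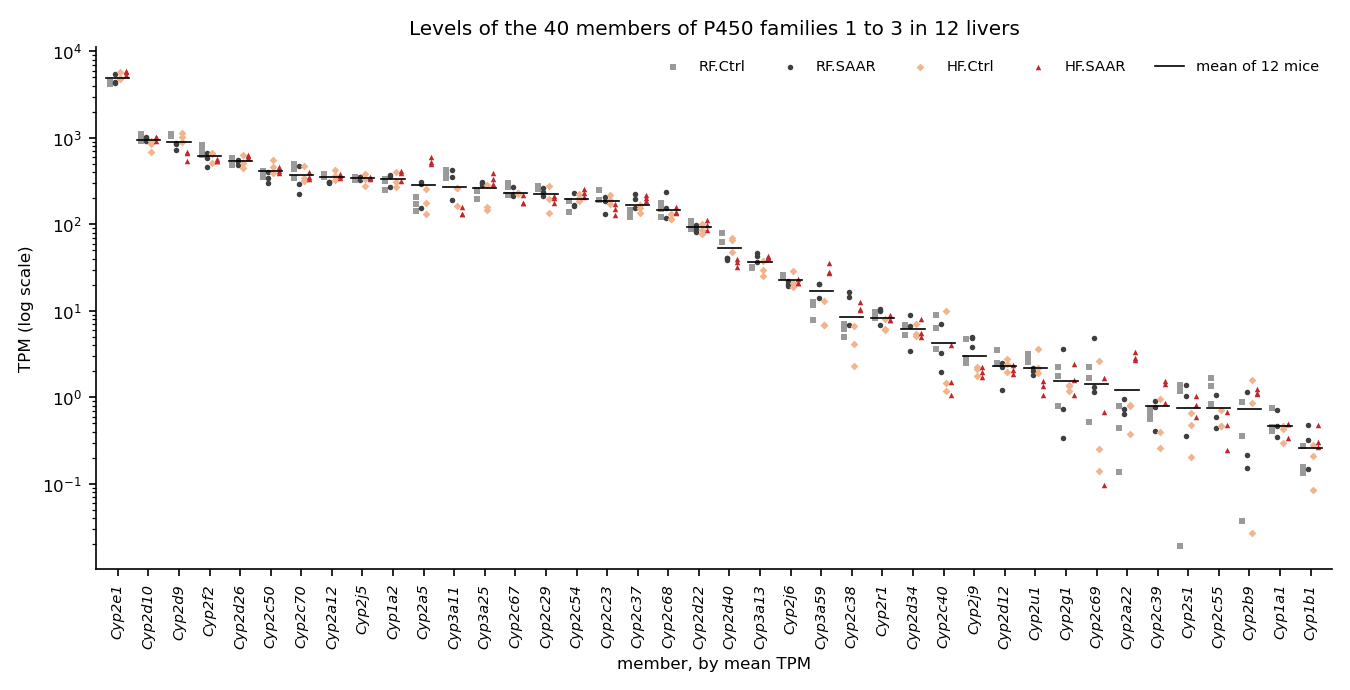
Level of each of the 40 members in each of the 12 mice, in TPM on a log axis, with members ordered by mean TPM and the mean of the 12 mice drawn as a bar. Cyp2e1 stands alone at the top at a mean of 4986 TPM, and points of a member scatter more at the low end.

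Sequence relations within the families bear on how reads could be assigned. In the most abundant transcript of each member, the share of stretches of 31 bases found in no other annotated gene had a median of 76.8%, was 90% or more in 14 members and was under 50% in 6. It was 100% in Cyp2c23 and 15.4% in Cyp2c40. Reads from the remaining stretches were divided between genes by the authors' quantification, so levels of members with a low share are less certain. The share is given beside each called member below.

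The first comparison was that of restricted with control mice, tested at each fat level and averaged over both. Restriction was accompanied by lower RNA of a set of abundant members and by higher RNA of a few. On regular fat 8 of the 40 members (20%) passed an adjusted p of 0.05 in edgeR's quasi-likelihood test, against 1.49% of all genes tested (0.886% lower and 0.6% higher), and all 8 were lower in RF.SAAR. On high fat 10 members (25%) passed, 7 lower and 3 higher in HF.SAAR, against 1.97% of all genes (0.961% lower and 1.01% higher). Averaged over both fat levels 16 members (40%) passed, 12 lower and 4 higher, against 6.92% of all genes (3.7% lower and 3.22% higher). The median log2 fold change of the members was -0.29 on regular fat, -0.19 on high fat and -0.23 averaged, while that of all genes was within 0.01 of 0. The log2 fold change was negative in 30, 28 and 30 of the 40 members, respectively. In CPM, the 3 restricted and the 3 control mice did not overlap in 14 members on regular fat (35%, against 18.2% of all genes) and in 18 on high fat (45%, against 17.9%). Over all 12 mice they did not overlap in 7 members (17.5%, against 4.3%), and these were Cyp2d40, Cyp2d9, Cyp2c23, Cyp2u1, Cyp2f2, Cyp2j6 and Cyp2c67, each lower under restriction.

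These counts depended on scaling and on single mice. TMM factors, which scale each library, ran from 0.945 to 0.979 for RF.Ctrl, from 1.04 to 1.11 for RF.SAAR, from 0.863 to 0.998 for HF.Ctrl and from 0.980 to 1.08 for HF.SAAR mice. With library size alone the median of all genes moved up by 0.17 on the log2 scale in the averaged comparison, 9 members were lower and 7 higher, and the members' median was -0.05. Without RF.Ctrl mouse 1, 2 or 3 the count on regular fat was 2, 3 or 3 in place of 8, and without RF.SAAR mouse 1, 2 or 3 it was 2, 5 or 4. On high fat the count was 5 without HF.Ctrl mouse 1 or 2 and 6 without HF.SAAR mouse 1 or 3, in place of 10. Leaving out all 5 mice with acinar RNA gave 1, 0 and 6 calls on regular fat, on high fat and averaged, with 1 mouse per group on high fat, whose spread was assumed to be like that of the other groups. Of the 6 averaged calls 5 were among the 16 (Cyp2d40, Cyp2d9, Cyp2c23, Cyp2u1 and Cyp2j6), and 1 was new (Cyp2c29, named after its value was seen). In group mean TPM, which carries no TMM factor, 15 of the 16 called members had the direction of their call at both fat levels, and Cyp2j5 had the opposite one. With the acinar level as a covariate, added after seeing the data, the counts were 9, 10 and 15.

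**Figure D2:**
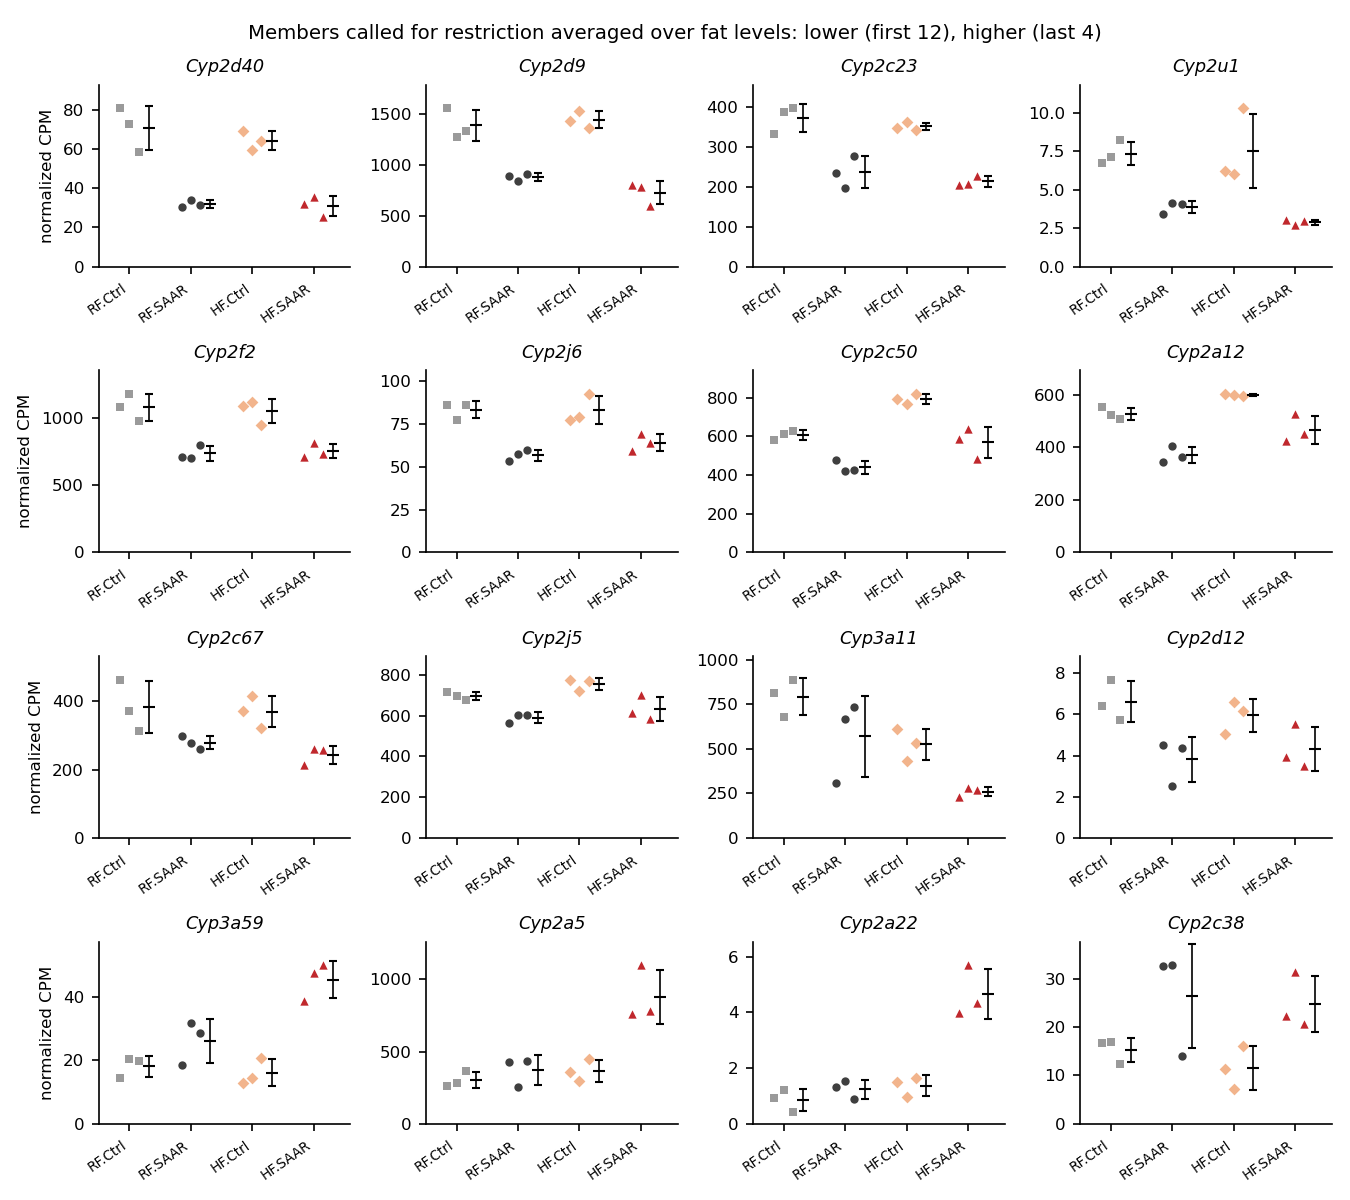
CPM of the 16 members called in the averaged comparison of restricted with control mice, 1 panel a member, with a point per mouse and the mean ± SD of the 3 mice of each group; each axis starts at 0. In the 12 lower members the mean of the restricted mice is below that of the controls at both fat levels, while Cyp2a5 and Cyp2a22 are highest in the 3 HF.SAAR mice.

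The Cyp2d members lie in a single run on chromosome 15 (GRCm38, chr15:82370527-82794294), in the order Cyp2d22, Cyp2d10, Cyp2d9, Cyp2d12, Cyp2d34, Cyp2d40 and Cyp2d26. Of the 7, 3 fell under restriction averaged over fat levels and none rose, with a median log2 fold change of -0.37. All 7 had a negative value, but with library size alone only 5 did. The start regions of Cyp2d40, Cyp2d9 and Cyp2d10 are shown because the first pair fell under restriction while Cyp2d10, a close neighbour of Cyp2d9, was not called. Each window runs from 250 bases before to 50 bases after the RefSeq start site (GRCm38.p6), 5′ to 3′ on the strand of the gene, with capitals marking TATAAA (the TATA box) and CAAAG (part of the site of HNF4 and related receptors) on either strand.
Cyp2d40 (chr15:82764073-82764372, minus strand): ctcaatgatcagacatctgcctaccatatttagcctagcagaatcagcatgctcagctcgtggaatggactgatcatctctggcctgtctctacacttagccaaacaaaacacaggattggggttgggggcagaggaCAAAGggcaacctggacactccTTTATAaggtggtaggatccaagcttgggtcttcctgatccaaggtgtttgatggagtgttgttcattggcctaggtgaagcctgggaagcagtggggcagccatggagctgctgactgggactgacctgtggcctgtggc
Cyp2d9 (chr15:82452127-82452426, plus strand): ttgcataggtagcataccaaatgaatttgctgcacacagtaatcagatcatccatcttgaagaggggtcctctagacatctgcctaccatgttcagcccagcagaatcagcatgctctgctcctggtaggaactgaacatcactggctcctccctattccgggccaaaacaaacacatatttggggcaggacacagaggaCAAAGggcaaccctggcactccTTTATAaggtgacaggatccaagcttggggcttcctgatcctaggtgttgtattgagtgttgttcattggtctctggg
Cyp2d10 (chr15:82407145-82407444, minus strand): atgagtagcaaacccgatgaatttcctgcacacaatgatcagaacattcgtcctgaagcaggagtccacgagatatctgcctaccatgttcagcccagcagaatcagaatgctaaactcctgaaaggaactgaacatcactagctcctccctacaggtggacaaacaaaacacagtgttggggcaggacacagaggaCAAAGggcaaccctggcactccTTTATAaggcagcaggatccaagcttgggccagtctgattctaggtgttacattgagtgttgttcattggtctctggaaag
Cyp2d9 and Cyp2d10 had the same base at 82.9% of alignment positions, gaps counted (252 of 304). Their unbroken shared run of 51 bases holds both marked motifs. Cyp2d40 and Cyp2d9 had the same base at 53.4% of positions (194 of 363), with a longest run of 19 bases. That run starts at -120 from the start site in Cyp2d40 and at -57 in Cyp2d9. These windows are thus offset, and the gaps lower their share.

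Cyp2d40 had the smallest p of all members in the averaged comparison. On regular fat its RNA was 80.9, 72.7 and 58.5 CPM in the RF.Ctrl mice and 30.4, 34.0 and 31.5 CPM in the RF.SAAR mice. On high fat the level was 69.1, 59.5 and 64.3 CPM in HF.Ctrl mice, against 32.2, 35.4 and 25.2 CPM in HF.SAAR mice. Every restricted mouse was below every control mouse, at both fat levels. Cyp2d40 was 2.21-fold lower on regular fat (log2 fold change -1.15, SE 0.14, adjusted p = 0.00173) and 2.08-fold lower on high fat (log2 fold change -1.06, SE 0.14, adjusted p = 0.00135), and it was called in all 12 fits that left out 1 mouse in each of these comparisons. Without the 5 mice with acinar RNA the call stayed on regular fat and averaged (log2 fold change -1.03, adjusted p = 0.00753 for the latter) and was lost on high fat. The share of its 31-base stretches in no other gene was 55.4%.

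Cyp2d9, a steroid hydroxylase known as higher in male than in female mouse liver, fell from a far higher level. Its RNA was 1555, 1276 and 1327 CPM in RF.Ctrl and 894, 841 and 913 CPM in RF.SAAR mice. The HF.Ctrl mice had 1432, 1529 and 1364 CPM and the HF.SAAR mice 797, 778 and 594 CPM. Even the lowest control mouse stood well above the highest restricted mouse. The fall was 1.57-fold on regular fat (log2 fold change -0.65, SE 0.12, adjusted p = 0.0138) and 1.99-fold on high fat (log2 fold change -0.996, SE 0.12, adjusted p = 0.000572). The regular-fat call was lost without RF.Ctrl mouse 1 and without the 5 mice with acinar RNA, with an adjusted p of at most 0.0814 over its alternatives. The averaged call held in all 20 alternatives (log2 fold change -0.68, adjusted p = 0.0220 without the 5 mice), and 53.6% of its stretches were in no other gene.

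Cyp2d12, at a mean of 2.32 TPM, was called only in the averaged comparison (log2 fold change -0.63, SE 0.17, adjusted p = 0.0427). It ranged from 5.05 to 7.67 with a median of 6.28 CPM over the 6 control mice and from 2.54 to 5.53 with a median of 4.14 CPM over the 6 restricted mice. These ranges overlapped, and the call held in 2 of 12 fits without 1 mouse and was lost without the 5 mice with acinar RNA (log2 fold change -0.74, adjusted p = 0.228). Its share of stretches in no other gene was 79.0%. The abundant Cyp2d10 and Cyp2d26 were not called: the averaged log2 fold change was -0.15 for Cyp2d10 (95% interval from -0.28 to -0.01, adjusted p = 0.217) and -0.16 for Cyp2d26 (95% interval from -0.30 to -0.01, adjusted p = 0.197). Cyp2d10 was 802, 794 and 745 CPM in HF.Ctrl and 738, 784 and 661 CPM in HF.SAAR mice, and the groups overlapped.

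The largest subfamily, Cyp2c, holds epoxygenases and hydroxylases of arachidonic acid, drugs and steroids. Of its 13 members 12 lie at chr19:39007019-40187333 and Cyp2c23 lies apart at chr19:44005022-44029208. In the averaged comparison 3 fell (Cyp2c23, Cyp2c50 and Cyp2c67), 1 rose (Cyp2c38) and 9 were not called. The median log2 fold change was -0.37, with 10 of 13 values negative, or 7 of 13 with library size alone.

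Cyp2c23, an arachidonic acid epoxygenase, was 332, 387 and 397 CPM in RF.Ctrl and 236, 197 and 277 CPM in RF.SAAR mice. At high fat the mice had 348, 363 and 344 CPM on the control diet and 205, 207 and 228 CPM on the restricted diet. All 6 restricted mice were below all 6 controls. The fall was 1.57-fold on regular fat (log2 fold change -0.66, SE 0.12, adjusted p = 0.0155) and 1.65-fold on high fat (log2 fold change -0.72, SE 0.12, adjusted p = 0.00756). The regular-fat call was lost without RF.Ctrl mouse 2, RF.Ctrl mouse 3 or RF.SAAR mouse 1, and under 3 other alternatives, whereas the averaged call held in all 20 alternatives (log2 fold change -0.75, adjusted p = 0.0368 without the 5 mice). Cyp2c23 shares no stretch of 31 bases with another gene.

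Cyp2c50, another epoxygenase and known as inducible through CAR, was 579.5, 609.6 and 628 CPM in RF.Ctrl and 478, 418 and 424 CPM in RF.SAAR mice. On high fat it was 791, 765 and 818 CPM in HF.Ctrl and 584, 638 and 482 CPM in HF.SAAR mice. Restricted mice were below control mice of the same fat level, but the HF.SAAR mice overlapped with RF.Ctrl. It was 1.38-fold lower on regular fat (log2 fold change -0.46, SE 0.10, adjusted p = 0.0465) and 1.39-fold lower on high fat (log2 fold change -0.48, SE 0.10, adjusted p = 0.0331). The call held in 2 of 12 and 6 of 12 fits without 1 mouse, and in 12 of 12 for the average. Without the 5 mice with acinar RNA the averaged call was lost (log2 fold change -0.50, adjusted p = 0.0666). Of its stretches 52.1% were in no other gene and 34.1% were shared with Cyp2c37.

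Cyp2c67 was called on high fat (1.52-fold lower, log2 fold change -0.61, SE 0.14, adjusted p = 0.0444) and averaged (log2 fold change -0.53, SE 0.10, adjusted p = 0.00636). It was 373, 414 and 322 CPM in HF.Ctrl and 213, 259 and 256 CPM in HF.SAAR mice, with no overlap. Its share of stretches in no other gene was low, at 32.4%, and the high-fat call held in 3 of 12 fits without 1 mouse. Both calls were lost without the 5 mice with acinar RNA (log2 fold change -0.46, adjusted p = 0.108 averaged). Cyp2c38, known as higher in female liver, moved the other way, ranging from 7.17 to 16.8 with a median of 14.3 CPM over the 6 controls and from 14.0 to 32.8 with a median of 26.8 CPM over the 6 restricted mice. RF.SAAR mouse 3, at 14.0 CPM, stayed within the control range. Neither fat level alone gave a call in edgeR (adjusted p = 0.366 on regular fat and 0.195 on high fat). Cyp2c38 was 1.93-fold higher on average (log2 fold change 0.95, SE 0.25, adjusted p = 0.0491), a call that held in 2 of 12 fits without 1 mouse and was lost without the 5 mice (log2 fold change 0.65, adjusted p = 0.521), and 83.4% of its stretches were in no other gene. Cyp2c70, which makes the muricholic acids of mouse bile, varied widely, at 385, 662 and 303 CPM in HF.Ctrl mice. It was not called (averaged log2 fold change -0.49, SE 0.22, adjusted p = 0.243).

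In the Cyp2a subfamily, neighbours moved in opposite directions. Cyp2a5, which hydroxylates coumarin and nicotine, Cyp2a22 and Cyp2a12 lie beside each other on chromosome 7, in a run of 7 members (chr7:25802475-27133660) that also holds Cyp2f2. Averaged over fat levels Cyp2a5 and Cyp2a22 rose and Cyp2a12 fell. Their start windows are shown on the same terms as those of the Cyp2d genes.
Cyp2a5 (chr7:26835089-26835388, plus strand): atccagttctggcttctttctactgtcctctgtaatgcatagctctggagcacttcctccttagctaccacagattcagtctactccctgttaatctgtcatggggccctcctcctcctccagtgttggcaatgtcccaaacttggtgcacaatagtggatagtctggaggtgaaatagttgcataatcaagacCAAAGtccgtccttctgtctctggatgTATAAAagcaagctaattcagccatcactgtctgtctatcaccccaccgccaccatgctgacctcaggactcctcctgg
Cyp2a22 (chr7:26939337-26939636, minus strand): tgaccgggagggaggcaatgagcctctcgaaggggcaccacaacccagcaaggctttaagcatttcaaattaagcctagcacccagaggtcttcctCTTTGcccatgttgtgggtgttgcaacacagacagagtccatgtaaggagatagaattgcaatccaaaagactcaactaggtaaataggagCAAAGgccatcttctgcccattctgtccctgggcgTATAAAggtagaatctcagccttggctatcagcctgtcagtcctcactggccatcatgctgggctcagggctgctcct
Cyp2a12 (chr7:27028840-27029139, plus strand): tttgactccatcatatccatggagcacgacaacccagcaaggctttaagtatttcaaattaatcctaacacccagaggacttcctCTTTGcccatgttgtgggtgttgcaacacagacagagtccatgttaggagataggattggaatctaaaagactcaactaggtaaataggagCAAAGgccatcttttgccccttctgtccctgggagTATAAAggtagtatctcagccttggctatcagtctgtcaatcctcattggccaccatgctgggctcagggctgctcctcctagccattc
Cyp2a22 and Cyp2a12, which moved in opposite directions, had the same base at 84.2% of alignment positions, gaps counted (262 of 311). They had a shared run of 50 bases. Cyp2a5 and Cyp2a22, which both rose, had the same base at 53% of positions (175 of 330).

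Cyp2a5 was 260.1, 284 and 364 CPM in RF.Ctrl and 427, 256 and 437 CPM in RF.SAAR mice, which overlapped. On high fat the level was 357, 295 and 448 CPM in HF.Ctrl mice, against 759.9, 1097 and 779 CPM in HF.SAAR mice. The 3 HF.SAAR mice stood above all others. Cyp2a5 was 2.40-fold higher on high fat (log2 fold change 1.26, SE 0.23, adjusted p = 0.0185), and on regular fat the log2 fold change was 0.30 (SE 0.23, adjusted p = 0.657). The high-fat call was lost without HF.Ctrl mouse 1, HF.Ctrl mouse 2 or HF.SAAR mouse 2. Without the 5 mice with acinar RNA, which include 4 of the 6 high-fat mice, both calls were lost (log2 fold change 0.74, adjusted p = 0.644 on high fat and log2 fold change 0.47, adjusted p = 0.387 averaged). Only 41.5% of its stretches were in no other gene and 48.2% were shared with Cyp2a4, whose own mean count was 1.20.

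Cyp2a22 was a low member at 1.21 TPM. It was 0.916, 1.23 and 0.425 CPM in RF.Ctrl and 1.33, 1.54 and 0.873 CPM in RF.SAAR mice. The HF.Ctrl mice had 1.50, 0.945 and 1.65 CPM and the HF.SAAR mice 3.97, 5.68 and 4.33 CPM. As with Cyp2a5, the HF.SAAR mice stood above the other 9. The rise on high fat was 3.42-fold (log2 fold change 1.77, SE 0.36, adjusted p = 0.0212), and the call held in 6 of 12 fits without 1 mouse, being lost without any single HF.Ctrl or HF.SAAR mouse. Neither this call nor the averaged one held without the 5 mice (log2 fold change 1.25, adjusted p = 0.671 on high fat and log2 fold change 0.91, adjusted p = 0.368 averaged). Its share of stretches in no other gene was 60.6%.

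Cyp2a12, a testosterone and bile acid hydroxylase, was 552, 523 and 507 CPM in RF.Ctrl and 345, 404 and 363 CPM in RF.SAAR mice. At high fat the mice had 603, 600.5 and 595 CPM on the control diet and 423, 526 and 452 CPM on the restricted diet. Within each fat level the restricted mice were lower without overlap. The call on regular fat (1.42-fold lower, log2 fold change -0.51, SE 0.10, adjusted p = 0.0197) held in 7 of 12 fits without 1 mouse, and on high fat the log2 fold change was -0.36 (adjusted p = 0.0875). The averaged log2 fold change of -0.43 was called in 12 of 12 such fits but not without the 5 mice with acinar RNA (log2 fold change -0.49, adjusted p = 0.0747). The share of its stretches in no other gene was 58.5%.

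Cyp2f2, which oxidizes naphthalene, was 1079.8, 1177 and 975 CPM in RF.Ctrl and 710.3, 699.7 and 799 CPM in RF.SAAR mice. On high fat it was 1085, 1117 and 949 CPM in HF.Ctrl and 712, 814 and 734 CPM in HF.SAAR mice. No restricted mouse reached the lowest control. The fall was 1.46-fold on regular fat (log2 fold change -0.55, SE 0.10, adjusted p = 0.0161) and 1.39-fold on high fat (log2 fold change -0.48, SE 0.10, adjusted p = 0.0286), and each call held in 8 of 12 fits without 1 mouse. Those calls and the averaged one were lost without the 5 mice (log2 fold change -0.49, adjusted p = 0.101 averaged). Of its stretches 88.0% were in no other gene.

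Cyp2u1, a fatty acid hydroxylase known as higher in male liver, lies alone at chr3:131288441-131303227 and was low at 2.21 TPM. It was 6.75, 7.11 and 8.20 CPM in RF.Ctrl and 3.41, 4.14 and 4.06 CPM in RF.SAAR mice. On high fat the level was 6.21, 6.00 and 10.3 CPM in HF.Ctrl mice, against 3.0, 2.69 and 2.97 CPM in HF.SAAR mice. The 6 restricted mice all lay below the 6 controls. Cyp2u1 was 2.60-fold lower on high fat (log2 fold change -1.38, SE 0.22, adjusted p = 0.00465), in 12 of 12 fits without 1 mouse, and 1.90-fold lower on regular fat (log2 fold change -0.93, SE 0.21, adjusted p = 0.0475), in 2 of 12. The averaged call held without the 5 mice (log2 fold change -1.39, adjusted p = 0.0147), those at each fat level did not, and 70.0% of its stretches were in no other gene.

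The Cyp2j members, among them epoxygenases of arachidonic acid, lie at chr4:96516138-96664154, and 2 of the 3 fell in the averaged comparison. Cyp2j6 was 86.5, 77.5 and 86.1 CPM in RF.Ctrl and 53.4, 57.6 and 59.7 CPM in RF.SAAR mice. The HF.Ctrl mice had 77.5, 79.4 and 92.7 CPM and the HF.SAAR mice 59.4, 69.3 and 63.9 CPM. The restricted mice were all below the controls, and the call on regular fat (1.47-fold lower, log2 fold change -0.55, SE 0.10, adjusted p = 0.0170) held in 8 of 12 fits without 1 mouse. On high fat Cyp2j6 was not called (log2 fold change -0.37, adjusted p = 0.0922), and its averaged call held without the 5 mice with acinar RNA (log2 fold change -0.59, adjusted p = 0.0383). Of its stretches 97.0% were in no other gene, and of those of Cyp2j5 96.5%. Cyp2j5 had the smallest spread between mice of all members, an SD of 0.0818 on the log2 scale, and its averaged fall was small at 1.19-fold (log2 fold change -0.25, SE 0.06, adjusted p = 0.0289). Cyp2j5 was called at neither fat level in edgeR (adjusted p = 0.234 on regular fat and 0.199 on high fat). It ranged from 675 to 775 with a median of 718 CPM over the controls. Over the restricted mice it ranged from 561 to 699 with a median of 604 CPM, with overlap. The call held in 3 of 12 fits without 1 mouse and was lost without the 5 mice (log2 fold change -0.28, adjusted p = 0.244). In TPM the direction of Cyp2j5 turned, with RF.Ctrl at 335 and RF.SAAR at 343, and HF.Ctrl at 333 and HF.SAAR at 346, as group means.

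The Cyp3a subfamily also split in the averaged comparison, though with library size alone 3 of its 4 members were called higher and none lower. Cyp3a11, the main PXR-inducible Cyp3a of mouse liver, and Cyp3a59 lie at the ends of a run of 3 members at chr5:145854426-146113287, with Cyp3a25 between them. Cyp3a11 was 815, 678 and 887 CPM in RF.Ctrl and 309.7, 666 and 732 CPM in RF.SAAR mice. At high fat the mice had 608, 431 and 534 CPM on the control diet and 231, 278 and 269.7 CPM on the restricted diet. RF.SAAR mouse 1 was far below the other RF.SAAR mice, and the HF.SAAR mice were all below HF.Ctrl. In edgeR Cyp3a11 was called at neither fat level (adjusted p = 0.498 on regular fat and 0.0927 on high fat). The averaged fall was 1.68-fold (log2 fold change -0.75, SE 0.19, adjusted p = 0.0373), it held in 4 of 12 fits without 1 mouse, and it was lost with library size alone and without the 5 mice (log2 fold change -0.84, adjusted p = 0.404). Its share of stretches in no other gene was 66.2%.

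Cyp3a59 rose. It was 14.2, 20.4 and 19.7 CPM in RF.Ctrl and 18.4, 31.5 and 28.6 CPM in RF.SAAR mice. On high fat it was 12.8, 14.5 and 20.8 CPM in HF.Ctrl and 38.7, 47.5 and 49.8 CPM in HF.SAAR mice. The HF.SAAR mice were above all others, while RF.SAAR mouse 1 lay within the RF.Ctrl range. It was 2.83-fold higher on high fat (log2 fold change 1.50, SE 0.23, adjusted p = 0.00498), called in 12 of 12 fits without 1 mouse, and on regular fat the log2 fold change was 0.53 (adjusted p = 0.318). Without the 5 mice with acinar RNA its calls were lost (log2 fold change 0.87, adjusted p = 0.494 on high fat and log2 fold change 0.63, adjusted p = 0.187 averaged). Of its stretches 51.1% were in no other gene and 42.4% were shared with Cyp3a25.

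The remaining subfamilies held no called member. Cyp2e1 was 7303, 6487 and 6999 CPM in RF.Ctrl and 6807, 6335 and 5865 CPM in RF.SAAR mice. On high fat the level was 8503, 10079.7 and 8879.8 CPM in HF.Ctrl mice, against 7895, 8694 and 7857 CPM in HF.SAAR mice. The averaged log2 fold change was -0.15 (95% interval from -0.29 to -0.01, adjusted p = 0.206). The direction depended on the scale. With library size alone the averaged log2 fold change of Cyp2e1 was 0.02. In TPM, which carries no TMM factor and is also scaled for transcript length, RF.Ctrl averaged 4304 and RF.SAAR 4749, while HF.Ctrl averaged 5155 and HF.SAAR 5737. None of the 3 members known as AHR targets (Cyp1a1, Cyp1a2 and Cyp1b1) was called, with a median log2 fold change of -0.12.

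**Figure D3:**
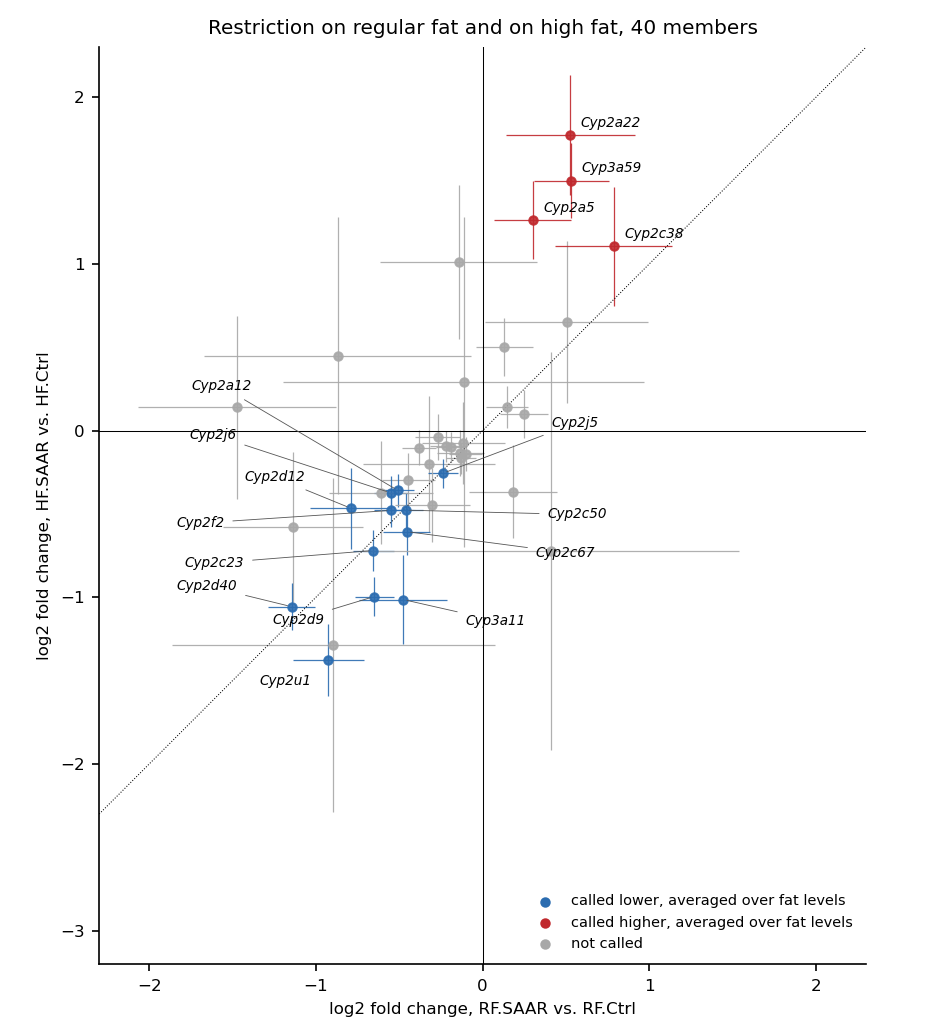
Log2 fold change of restricted against control mice on regular fat (x axis) and on high fat (y axis) for the 40 members, with bars of ± SE and a dotted line where both are equal. Most members lie below 0 on both axes. Of the 40, 24 lie above the line, among them Cyp2a5, Cyp2a22 and Cyp3a59.

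Known classes of members were counted in the averaged comparison, in which 3.7% of all genes were called lower and 3.22% higher. Of 9 genes listed as CAR or PXR targets 8 were tested, 2 fell (Cyp2c50 and Cyp3a11) and none rose, with a median log2 fold change of -0.25. This depended on scaling. With library size alone, where the median of all genes was 0.16, the listed Cyp3a13 and Cyp3a25 were called higher and Cyp3a11 was not called. Of 13 genes listed as higher in female liver 6 were tested, 1 rose (Cyp2c38) and none fell, with a median of -0.03. Only 2 genes, Cyp2d9 and Cyp2u1, were listed as higher in male liver, and both fell, with a median of -0.99. The lists were chosen with earlier results of these data known, so these counts only describe the genes listed. All-gene medians lay within 0.01 of 0. By level, 10 of the 24 members at 10 TPM or more fell and 2 rose, and 2 of the 16 below 10 TPM fell and 2 rose.

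Partners of the P450 system were read from lists of other genes. Of 8 genes of electron transfer and epoxide hydrolysis 1 rose and 2 fell in the averaged comparison, in which 6.92% of all genes were called (3.22% higher and 3.7% lower). Ephx1, the microsomal epoxide hydrolase that acts on P450 products, rose (log2 fold change 0.70, SE 0.07, adjusted p = 9.41e-05). It was 274, 276 and 246 CPM in RF.Ctrl and 412, 471 and 493 CPM in RF.SAAR mice. The HF.Ctrl mice had 338, 303 and 284 CPM and the HF.SAAR mice 441, 503 and 462 CPM, and the restricted mice were higher within each fat level. Ephx2, the soluble hydrolase of epoxy fatty acids, fell (log2 fold change -0.46, SE 0.10, adjusted p = 0.0146), as did the cytochrome b5 reductase Cyb5r3 (log2 fold change -0.32, SE 0.06, adjusted p = 0.00712). Ephx2 was called on high fat (log2 fold change -0.75, adjusted p = 0.0163) but not on regular fat (-0.17, adjusted p = 0.686). Cyb5r3 was called on regular fat (-0.40, adjusted p = 0.0404) but not on high fat (-0.25, adjusted p = 0.220). Por, the electron donor of all members, was not called (log2 fold change 0.57, adjusted p = 0.280).

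Of 12 genes of heme synthesis and breakdown 2 were called, against 6.92% of all genes: the heme oxygenase Hmox2 rose (log2 fold change 0.42, SE 0.07, adjusted p = 0.00408) and Ppox, an enzyme late in heme synthesis, fell (log2 fold change -0.36, SE 0.09, adjusted p = 0.0247). Alas1, the rate-limiting enzyme of heme synthesis, was not called (log2 fold change -0.53, SE 0.53). Of 19 receptors and transcription factors 2 were called, against 6.92% of all genes. Nr1i3, which encodes CAR, rose (log2 fold change 0.58, SE 0.15, adjusted p = 0.0420) but was called in only 8 of 20 alternatives. Tef, a clock-controlled factor, fell (log2 fold change -0.63, SE 0.15, adjusted p = 0.0226) and was called in 12 of 20, and Ppox in 13 of 20. Of 10 genes of the growth hormone axis 3 fell and 1 rose, against 3.7% and 3.22% of all genes. The receptor Ghr was 509, 481 and 549.7 CPM in RF.Ctrl and 354, 296 and 323 CPM in RF.SAAR mice, and 495, 489 and 562 CPM in HF.Ctrl and 308, 278 and 297 CPM in HF.SAAR mice. Restricted mice were lower without overlap within each fat level, and Ghr fell at both (log2 fold change -0.66, SE 0.10, adjusted p = 0.00482 on regular fat and log2 fold change -0.81, SE 0.10, adjusted p = 0.000761 on high fat). Igf1, its target in liver, fell (log2 fold change -0.37, SE 0.08, adjusted p = 0.0118), as did the factor Onecut1 (log2 fold change -1.65, SE 0.36, adjusted p = 0.0298, called in 11 of 20 alternatives), while Stat5a rose (log2 fold change 0.57, SE 0.13, adjusted p = 0.0180). With library size alone Cyb5r3, Tef and Ppox were no longer called, and without the 5 mice with acinar RNA only Ephx1 and Ghr of these list genes were.

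Whether the response to restriction differed between fat levels was tested as an interaction. No member passed the adjusted threshold in edgeR, as against 0.00682% of all genes. DESeq2 called no member either (0.106% of genes), and 3 members (7.5%) had an unadjusted p under 0.05, against 3.15% of all genes. These were Cyp3a59 (difference in log2 fold change 0.97, SE 0.32), Cyp2a5 (0.96, SE 0.33) and Cyp2a22 (1.25, SE 0.53), each with an adjusted p of 0.999 in edgeR. In each the log2 fold change on high fat was above that on regular fat, as it was in 24 of the 40 members. A difference between the fat levels was not shown for their calls.

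High-fat mice were then compared with regular-fat mice. These comparisons share mice with those of restriction. No member was called in HF.Ctrl vs. RF.Ctrl (0% of all genes), in HF.SAAR vs. RF.SAAR (0.0477%) or averaged over diets (0.0409%). An unadjusted p under 0.05 was reached by 8, 12 and 12 members (20%, 30% and 30%), against 3.59%, 5.59% and 5.84% of all genes, and of the 12 in the averaged comparison 9 were higher and 3 lower on high fat. With DESeq2 1, 5 and 8 members were called, against 0.212%, 0.564% and 0.762% of genes. The call therefore turned on the tool, and mice with acinar RNA were 4 of 6 on high fat and 1 of 6 on regular fat.

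Cyp2e1 had the smallest p among the members in the averaged fat comparison. By the CPM given above, the 6 high-fat mice (7857 to 10079.7 CPM) lay above the 6 regular-fat mice (5865 to 7303 CPM) without overlap, as in 0.198% of all genes. In TPM Cyp2e1 overlapped between fat levels, with 5439 TPM in RF.SAAR mouse 1 and 4759 TPM in HF.Ctrl mouse 1. Its group means in TPM, given above, were higher on high fat for each diet. Its log2 fold change was 0.38 (SE 0.06, 1.30-fold, adjusted p = 0.0544 in edgeR), and DESeq2 called it in all 3 fat comparisons. Cyp2c50 was next at 0.38 (SE 0.07, adjusted p = 0.130), with HF.Ctrl above RF.Ctrl and HF.SAAR above RF.SAAR in every mouse. Cyp2a22 followed at 1.27 (SE 0.26, adjusted p = 0.131), and its value in restricted mice alone was 1.90. Cyp3a11 had the opposite sign, at -0.86 (SE 0.19, adjusted p = 0.198).

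**Figure D4:**
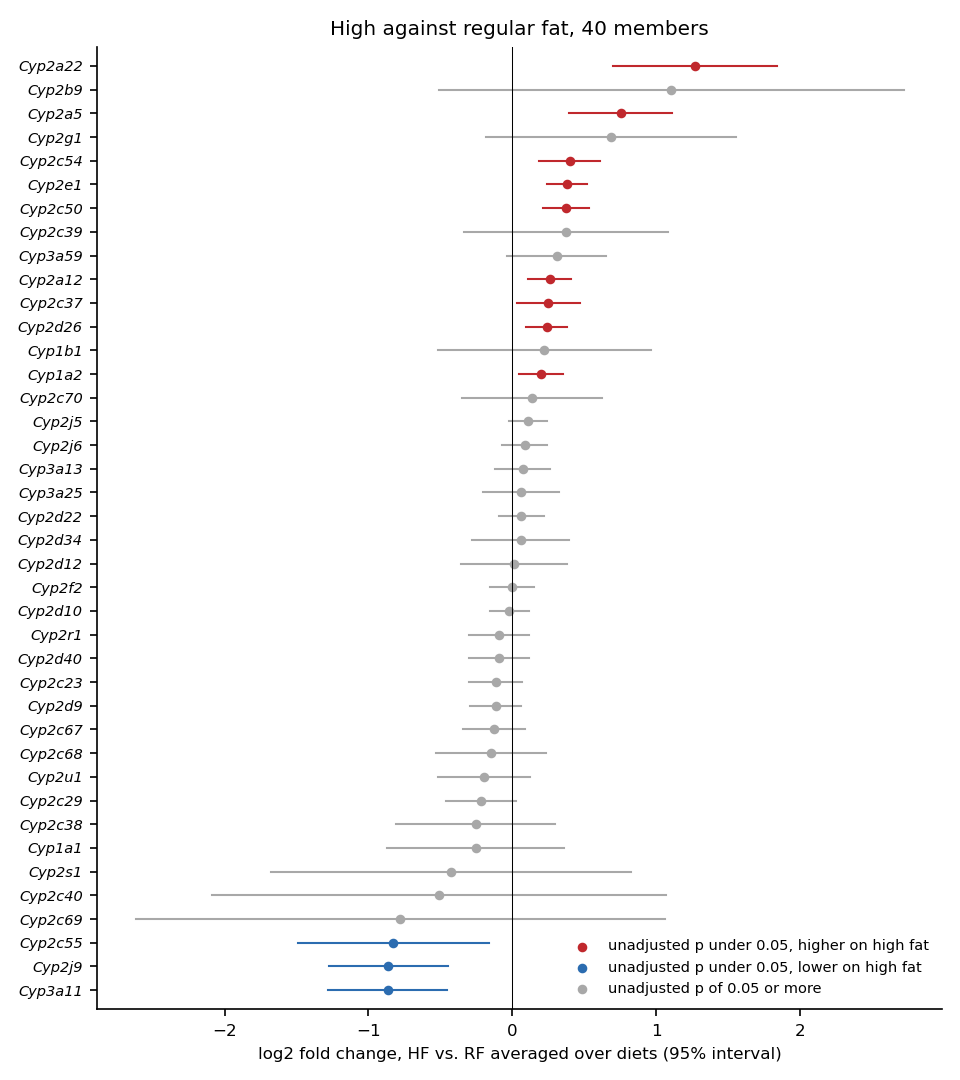
Log2 fold change of high-fat against regular-fat mice averaged over diets for the 40 members, with 95% intervals and colour by unadjusted p. Cyp2e1 has a narrow interval above 0 at 0.38, and members of low level have wide ones.

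RefSeq windows of 300 bases were found for 33 of the 40 members. Read over both strands, TATAAA stood in 20 of the 33 (60.6%), against 13.6% of all 32851 windows, and CAAAG in 29 (87.9%), against 53.9%. TATAAA starting 40 to 20 bases before the start site was found in 13 members (39.4%), against 2.5% of all windows. The STAT5 motif TTCNNNGAA was in none of the 33 (8.3% of all windows), and the AHR motif GCGTG, part of the site of that receptor, was in 5 (15.2%), against 32.4%. TGATGNAA, a motif of ATF4 with C/EBP, was in the window of Cyp3a11 alone (3.97% of all windows), TGACNNNGC, the motif of NRF2, in that of Cyp2j6 alone (12.4%), and CCAAT in 16 members (48.5%, against 37.4%). Among members with a window, TATAAA was in 6 of the 9 that fell and 3 of the 4 that rose. Related members share sequence by descent, so their windows are not independent.

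**Figure D5:**
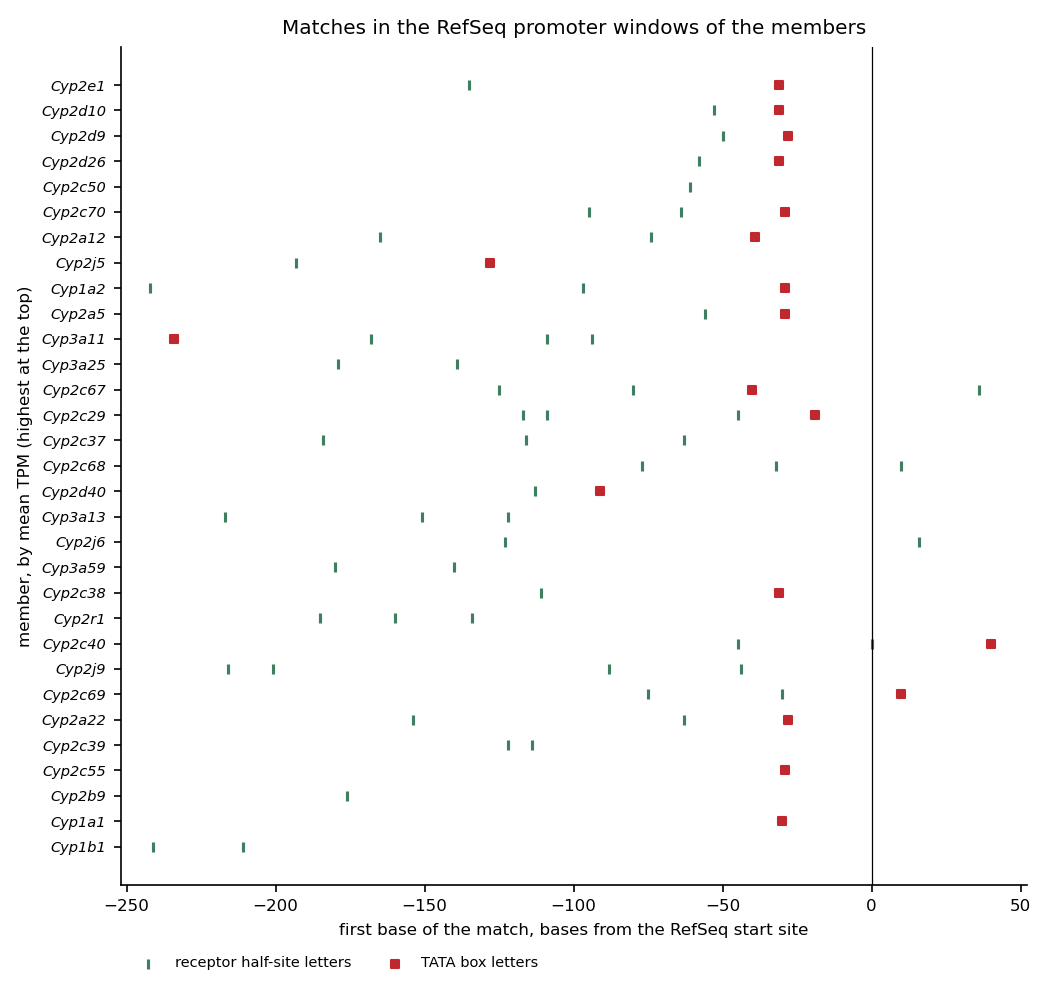
Positions of TATAAA and CAAAG matches on either strand in the start windows of the 31 members with at least 1 of them, in bases from the RefSeq start site, with 1 row a member, its first RefSeq window drawn, and a colour for each motif. Many matches of TATAAA sit 40 to 20 bases before the start site.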

How the data were processed

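Liver RNA of 12 mice was quantified by the authors, who checked reads with FastQC, trimmed them with cutadapt and assigned them to the Ensembl mouse transcriptome with kallisto. The deposited estimated counts are not normalized between mice, the deposited TPM are scaled for effective length within a mouse, and no replicates were pooled. Effective lengths in bases were deposited too and entered 1 alternative. Of 118489 transcripts 116816 matched the GENCODE annotation of GRCm38, and the 1673 others held 1.08% of the counts.

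Estimated counts were summed by gene, rounded and fitted in R 4.3.3 with edgeR 4.0.16 and limma 3.58.1 (TMM factors, filterByExpr, robust quasi-likelihood fit of the 4 groups over all 12 mice, Benjamini-Hochberg adjustment over the 14670 genes tested, called at an adjusted p under 0.05). Without molecular identifiers, precision came from the spread between mice. DESeq2 1.42.0, RLE size factors, library size alone, other filters, effective-length offsets, the compared groups alone, transcripts not summed and leaving out each mouse were alternatives, and removal of or adjustment for acinar RNA was added after seeing the data. Promoter windows (RefSeq, GRCm38.p6) were aligned in Python 3.11.15 with Biopython 1.88. The test scripts were checked on simulated data.

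Members and lists were chosen with earlier results of these data known. Named were members called under restriction, the 8 most abundant, the 3 with the smallest p of the interaction and of fat, and called list genes. Others, such as Cyp2c40, Alas1 and Por, were named after their values were seen.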

Additional observations from a re-analysis of the deposited data

How the results depend on the processing

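No direction of a called member reversed in any alternative fit of counts summed by gene. For transcripts not summed only calls were counted, and directions were not compared. In group mean TPM, which was not a fit, the direction of Cyp2j5 turned. On regular fat the 8 calls became 4 with library size alone, 5 with only the groups compared, 1 with transcripts not summed, 1 without the 5 mice with acinar RNA, and 2 to 7 without 1 mouse. On high fat the 10 calls became 4 with transcripts not summed, 0 without the 5 mice, and 5 to 10 without 1 mouse. The 16 averaged calls became 6 without the 5 mice and 12 to 15 without 1 mouse. DESeq2 gave more restriction calls, at 9 on regular fat, 14 on high fat and 18 averaged, against 4.8%, 4.65% and 9.03% of genes. On high fat it added Cyp2a12, Cyp2c38, Cyp2j6 and Cyp3a11 (adjusted p = 0.0157, 0.0186, 0.0234 and 0.00173 in DESeq2), which edgeR did not call there. For high against regular fat averaged over diets, DESeq2 gave 8 calls, and effective-length offsets and no low-count filter gave 1 each, in place of 0, with 0 to 1 without 1 mouse. DESeq2 gave 1 call for HF.Ctrl vs. RF.Ctrl and 5 for HF.SAAR vs. RF.SAAR, where no low-count filter gave 1, with 0 to 1 without 1 mouse. The interaction gave 0 calls in each alternative. The causes were not tested, except that leaving out mice lowers their number. With 3 mice a group, members under 10 TPM, whose median SD was 0.368 on the log2 scale, were measured least precisely. The labels give no replicate numbers and no pairing, so no paired analysis was run. The mouse numbers used here follow the order of the deposited samples within each group.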

Other observations

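The 20 genes that fit the symbol rule but not the count minimum were close to silent. Cyp2d11 had the highest mean count among them at 8.85 (0.374 TPM), and Cyp2b10, the standard CAR target of mouse liver, averaged 6.08 counts (0.203 TPM). A mean under 1 count was found in 12 of the 20, and Cyp2j7, Cyp2j11, Cyp2w1 and Cyp3a16 had no count in any mouse. Cyp2c40 and Cyp2c69, known as higher in female liver, varied most between mice of a group, with a pooled SD of 1.12 on the log2 scale in both. Cyp2c40 was 1.77, 18.8 and 1.71 CPM in HF.Ctrl mice and 1.88, 6.10 and 1.27 CPM in HF.SAAR mice, and Cyp2c69 was 0.205, 4.50 and 0.305 CPM in HF.Ctrl mice, so that in HF.Ctrl mouse 2 stood above the others for both. Only 15.4% of the stretches of 31 bases of Cyp2c40 were in no other gene. For Cyp2c69 the share was 34.1%, and 58.2% of its stretches were shared with Cyp2c40, so their values are not separate observations. Alas1 was 823, 130.1 and 619 CPM in RF.Ctrl and 618, 681 and 119 CPM in HF.Ctrl mice, and the lowest control mouse of each fat level was also the lowest for Por, at 114 CPM in RF.Ctrl mouse 2 and 119.7 CPM in HF.Ctrl mouse 3.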
